A study of Homo sapiens with 16 samples.

Results

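Depletion of SETD2 by siRNA in 293T cells is described here across the expressed transcriptome. A gene was included when its mean abundance over the 6 RNA-seq libraries of the series was at least 0.5 TPM (a length-corrected share of the transcripts of a library, scaled to the same total in each), which kept 16300 of the 58884 genes in the table. 293T is a wild-type human embryonic kidney line that carries the SV40 large T antigen, and adherent cultures were treated for 72 h with Dharmacon siRNA delivered by a lipid reagent. The compared groups are a scramble siRNA (libraries 1 and 2) and an siRNA against SETD2 (libraries 2 and 3), and hnRNP L siRNA (libraries 1 and 2) entered the same fit. All groups share the parental line, the transfection and the time point, and no library comes from untransfected cells. The study describes the replicates of its high-throughput experiments as independent biological replicates, while the labels of these libraries do not say how the cultures were separated. The p-values measure the spread between these libraries.

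SETD2 is the methyltransferase that trimethylates lysine 36 of histone H3 (H3K36me3) over the bodies of transcribed genes, where it travels with elongating RNA polymerase II. The mark is bound by proteins with PWWP and chromo domains that act in DNA methylation, splicing, histone deacetylation and mismatch repair. Other enzymes of the family, among them NSD1, NSD2, NSD3 and ASH1L, add the mono- and dimethyl forms.

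The siRNA target was checked first. SETD2 (ENSG00000181555, chr3:47016428-47164113, minus strand, hg38) was at 13.4 and 11.7 TPM in the scramble libraries and at 4.24 and 4.91 TPM in the SETD2 siRNA libraries. Both SETD2 siRNA values lay far below both scramble values, the mean being 36.5% of that in the controls. On the log2 scale the change was -1.36 ± 0.13 (SE, n = 2 libraries per group, limma adjusted p = 0.00603). The hnRNP L siRNA libraries held 10.8 and 10.2 TPM. None of the other 7 tested H3K36 methyltransferases reached an unadjusted p under 0.05 in the deposited TPM, and their log2 fold changes ran from -0.21 for NSD3 to 0.19 for NSD1. After rescaling the TPM without mitochondrially encoded genes, 2 of the 8, SETD2 included, were lower at that p. Under that scaling 3 of the 8 lay below and 0 above, beside 5216 below and 2307 above among all genes. Of the 7 tested H3K36 demethylases, 4 had both SETD2 siRNA libraries above both scramble libraries, as had 22.9% of all genes, and 0 reached an unadjusted p under 0.05 (limma, in either direction, beside 1102 higher and 1037 lower genes in all). With the TPM rescaled without mitochondrially encoded genes, 1 of the 7 lay above and 1 below.

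The cells carried the markers of the line. All 10 markers fixed for 293T were expressed, their summed level ranging from 1230 to 1420 TPM in the scramble libraries and from 1480 to 1620 TPM in the SETD2 siRNA libraries. Of the markers of blood cells, PTPRC, the pan-leukocyte phosphatase, was listed at 0 in all 6 libraries. CD68, a macrophage marker, was at 2.70 and 1.95 TPM in the scramble libraries and at 4.27 and 3.70 TPM after SETD2 siRNA. HBA1, an alpha globin gene, was at 0.73 and 0.81 TPM against 1.47 and 1.38 TPM. Both were higher at an unadjusted p under 0.05, and their part in other results was not tested. Fibroblast and endothelial markers summed to 5.81 and 7.48 TPM in the scramble libraries and to 4.65 and 7.51 TPM after SETD2 siRNA, with VWF at 0. Mature kidney markers summed to between 4.67 and 5.82 TPM in these 4 libraries, and AQP2, UMOD and SLC12A3 were listed at 0.

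Scramble library 1 stood apart in its mitochondrial share. Transcripts encoded in the mitochondrial genome took 17.5% of its TPM, against 7.86% in scramble library 2, 6.73% and 6.70% in the SETD2 siRNA libraries, and 10.9% and 8.80% in the hnRNP L siRNA libraries. Because TPM add up to a fixed total, every other gene of scramble library 1 is scaled down by that share. MT-CO1, a subunit of cytochrome oxidase, was at 19632 and 8131 TPM in scramble libraries 1 and 2 and at 6164 and 6314 TPM in the SETD2 siRNA libraries. The 13 mitochondrially encoded mRNAs had a median log2 fold change of -0.78, of -0.11 without scramble library 1 and of -1.46 without scramble library 2. Their difference between the scramble libraries (median -1.22) was thus larger than their difference between the groups, and 0 were called. Many of the results below are therefore also given without scramble library 1 or after rescaling the TPM without the mitochondrially encoded genes, and a count given once is for the TPM as deposited.

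A gene was called when its fold change exceeded 1.5 with a Benjamini-Hochberg adjusted limma p below 0.05. By this rule 9 genes rose (0.0552% of those tested) and 8 fell (0.0491%). With the TPM rescaled without mitochondrial genes, 6 rose and 11 fell, and without scramble library 1 only 4 of the 16 called genes other than SETD2 were still called. A 2-against-2 exact permutation test of a single gene cannot give a two-sided p under 0.333, so these calls rest on the spread shared across genes in limma. The median standard error of a log2 fold change was 0.143, about as large as the median absolute difference between the groups (0.15). Among protein-coding and lncRNA genes alone, which leaves out small RNAs and pseudogenes, 25 rose (0.171% of 14596) and 35 fell (0.240%). In bulk RNA a change cannot be told apart from a change in the share of cells that express the gene.

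**Figure D1:**
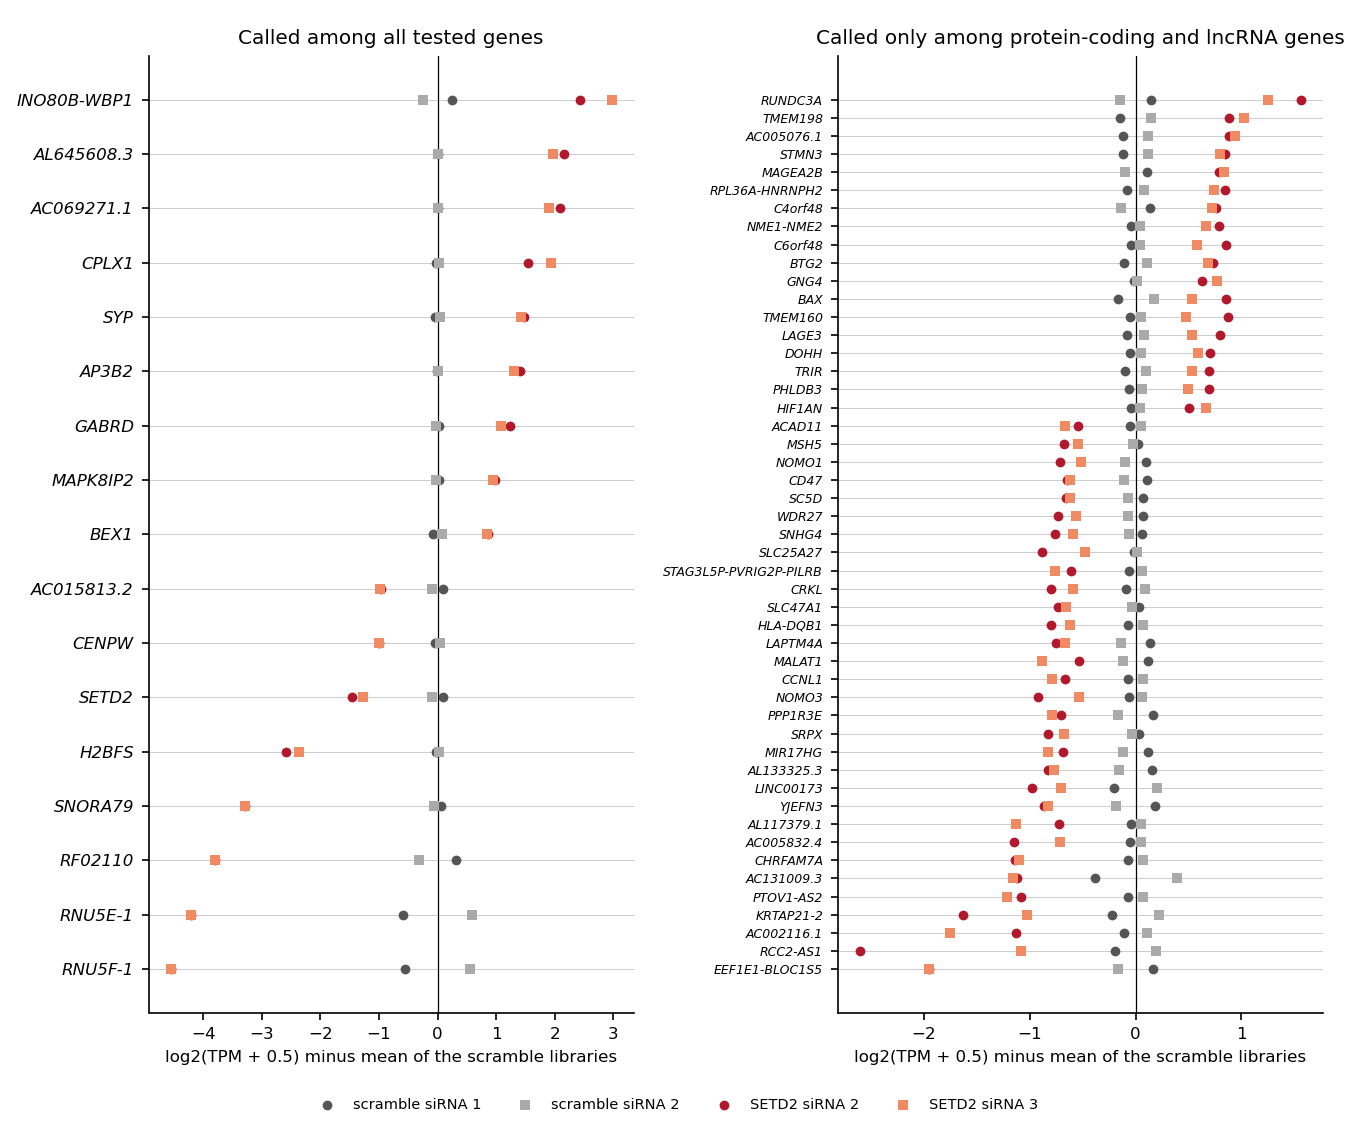
Each row is a gene and each point a library, placed at its log2(TPM + 0.5) minus the mean of the scramble libraries (grey), with SETD2 siRNA libraries in red and orange. The left panel holds the 17 genes called among all tested genes and the right panel those called only among protein-coding and lncRNA genes; in every row both SETD2 siRNA points lie on the same side of both scramble points.

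Of the 7 protein-coding genes that rose, 6 encode proteins of neurons. SYP, the synaptic vesicle membrane protein synaptophysin, was at 8.59 and 9.21 TPM in the scramble libraries and at 25.7 and 24.7 TPM after SETD2 siRNA. This is a 2.73-fold increase (log2 fold change 1.45 ± 0.11, adjusted p = 0.00156). CPLX1, complexin 1, which clamps vesicle fusion, was at 1.68 and 1.77 TPM against 5.97 and 8.02 TPM. AP3B2, the neuronal subunit of the AP-3 vesicle coat, was at 1.55 and 1.59 TPM against 5.00 and 4.60 TPM. The 3 vesicle genes moved by 1.36 to 1.74 on the log2 scale, and in each of them the groups were separated by far more than the libraries of a group differed. GABRD, the delta subunit of the GABA-A receptor, was at 1.97 and 1.86 TPM against 5.21 and 4.62 TPM. MAPK8IP2, a scaffold of the JNK pathway in neurons, was at 6.84 and 6.63 TPM against 13.8 and 13.4 TPM, a 1.95-fold increase. BEX1, a small adaptor protein of developing neurons, was at 12.7 and 14.1 TPM against 24.6 and 24.4 TPM (log2 fold change 0.85 ± 0.11, adjusted p = 0.0305).

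Of these 6 neuronal genes, only BEX1 and the vesicle genes SYP and AP3B2 passed the direct test against hnRNP L siRNA. BEX1 was 0.80 ± 0.11 higher on the log2 scale after SETD2 than after hnRNP L siRNA (adjusted p = 0.00507), where it held 14.1 and 13.5 TPM. SYP was 0.39 ± 0.11 higher (adjusted p = 0.0481), with 19.12 and 18.95 TPM after hnRNP L siRNA. For GABRD that difference was 0.01 ± 0.15. Against the same scramble libraries, all of these neuronal genes except BEX1 were also higher after hnRNP L siRNA (limma adjusted p below 0.05). There CPLX1 was at 5.78 and 5.17 TPM and GABRD at 5.18 and 4.56 TPM. MAPK8IP2 was at 10.31 and 10.83 TPM and AP3B2 at 3.04 and 2.75 TPM. Over all tested genes, 7.99% were higher and 2.77% lower after SETD2 than after hnRNP L siRNA at this adjusted p.

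Among the protein-coding genes that fell was CENPW. It encodes a histone-fold protein of the inner kinetochore that is needed to build the centromere. Its level was 70.2 and 75.1 TPM in the scramble libraries, 36.11 and 36.02 TPM after SETD2 siRNA, and 77.9 and 71.8 TPM after hnRNP L siRNA. The log2 fold change was -0.999 ± 0.098 (adjusted p = 0.00603), and the direct difference from hnRNP L siRNA was -1.04 ± 0.10 (adjusted p = 0.00121). H2BFS, a histone H2B gene whose sequence closely resembles clustered H2B genes, was at 2.45 and 2.54 TPM and then at 0 and 0.08 TPM, while the hnRNP L siRNA libraries held 1.90 and 2.45 TPM. AC015813.2, a coding model that overlaps the splicing factor gene SRSF1 on the same strand, went from 47.8 and 41.6 TPM to 22.6 and 22.4 TPM. Reads of overlapping or near-identical genes can be divided between them by the estimation, so both of these are uncertain.

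The remaining called genes are small RNAs, pseudogenes or read-through models. RNU5F-1 and RNU5E-1, copies of the U5 spliceosomal RNA, were at 7.47 and 16.9 TPM and at 5.61 and 13.4 TPM in the scramble libraries, and both were listed at 0 in all SETD2 and hnRNP L siRNA libraries. SNORA79, a snoRNA inside GTF2A1, was at 4.59 and 4.20 TPM and then listed at 0. RF02110, a structured RNA opposite DLEU2 on chromosome 13, was at 8.10 and 5.10 TPM and then listed at 0. In the other direction, the pseudogenes AC069271.1, inside IQSEC1, and AL645608.3, opposite ISG15, were listed at 0 in both scramble libraries and lay between 1.36 and 1.74 TPM after SETD2 siRNA. The read-through model INO80B-WBP1 was at 0.20 and 0 TPM against 2.71 and 4.15 TPM. After hnRNP L siRNA INO80B-WBP1 was at 2.10 and 1.61 TPM, AC069271.1 at 2.84 and 2.57 TPM, and SNORA79 was also listed at 0. RF02110 was at 2.95 and 5.27 TPM in those libraries, and AL645608.3 was listed at 0. The libraries went through ribodepletion and polyA enrichment, no fold is given where a group is listed at 0, and reads of these features may belong to copies or host genes.

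The promoters of 5 called coding genes with an entry in the promoter table are shown, 4 raised and 1 lowered, to set their sequence beside their direction. CPLX1 and GABRD had no entry. Each runs from 250 bases before to 50 bases after the RefSeq start (GRCh38.p14), read in the direction of the gene: SYP at chrX:49200144-49200443 (minus strand), MAPK8IP2 at chr22:50600543-50600842 (plus strand), AP3B2 at chr15:82709826-82710125 (minus strand), BEX1 at chrX:103064122-103064421 (minus strand) and CENPW at chr6:126339865-126340164 (plus strand). Capitals mark GC boxes (GGGCGG) and CCAAT boxes (CCAAT) on either strand.

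SYP: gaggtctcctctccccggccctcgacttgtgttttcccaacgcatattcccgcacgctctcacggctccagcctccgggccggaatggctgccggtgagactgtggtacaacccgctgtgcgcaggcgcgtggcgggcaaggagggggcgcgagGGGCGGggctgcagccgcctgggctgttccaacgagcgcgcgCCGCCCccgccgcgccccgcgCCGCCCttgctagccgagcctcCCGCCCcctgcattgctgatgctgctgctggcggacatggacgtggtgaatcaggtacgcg
MAPK8IP2: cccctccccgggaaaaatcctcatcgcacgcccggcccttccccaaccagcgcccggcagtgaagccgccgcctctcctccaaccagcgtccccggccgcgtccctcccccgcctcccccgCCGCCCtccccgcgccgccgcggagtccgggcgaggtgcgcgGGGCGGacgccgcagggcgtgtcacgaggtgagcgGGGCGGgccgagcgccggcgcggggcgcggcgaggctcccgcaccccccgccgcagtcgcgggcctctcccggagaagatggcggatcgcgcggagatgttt
AP3B2: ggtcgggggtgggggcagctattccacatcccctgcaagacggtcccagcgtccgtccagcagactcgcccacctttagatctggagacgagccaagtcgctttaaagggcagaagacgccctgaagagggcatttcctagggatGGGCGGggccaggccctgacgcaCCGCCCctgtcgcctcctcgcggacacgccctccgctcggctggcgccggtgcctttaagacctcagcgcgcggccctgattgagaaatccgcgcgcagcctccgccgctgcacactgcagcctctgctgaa
BEX1: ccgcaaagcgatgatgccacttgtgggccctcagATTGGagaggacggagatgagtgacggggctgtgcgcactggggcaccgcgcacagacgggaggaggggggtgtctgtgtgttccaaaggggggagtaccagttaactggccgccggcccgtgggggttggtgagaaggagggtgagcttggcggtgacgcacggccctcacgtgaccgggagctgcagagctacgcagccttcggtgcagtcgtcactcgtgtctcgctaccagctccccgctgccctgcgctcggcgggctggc
CENPW: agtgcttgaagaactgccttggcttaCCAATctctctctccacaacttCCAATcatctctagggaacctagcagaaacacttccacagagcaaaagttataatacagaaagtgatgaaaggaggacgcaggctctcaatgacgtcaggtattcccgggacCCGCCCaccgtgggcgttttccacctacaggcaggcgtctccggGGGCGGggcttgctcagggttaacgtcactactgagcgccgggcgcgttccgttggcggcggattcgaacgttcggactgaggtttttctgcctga

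The 3 raised genes SYP, MAPK8IP2 and AP3B2 hold 4, 3 and 2 GC boxes and no CCAAT box, BEX1 holds 1 CCAAT box and no GC box, and CENPW holds 2 of each. GC content was 71.3% for SYP, 78.7% for MAPK8IP2, 66.3% for AP3B2, 67.0% for BEX1 and 55.0% for CENPW, beside a median of 65.7% over the promoters of tested genes. Promoters were matched for 39 of the 66 genes called in either fit. A GC box was present in 13 of 18 raised and 18 of 21 lowered genes and in 71.3% of 10570 promoters of tested genes. A CCAAT box was present in 6 of 18 raised and 12 of 21 lowered genes and in 36.8% of all. The TATA box letters TATAAA were in 0 of 18 and 3 of 21, beside 5.21% of all. Half-sites of the RE1 element bound by REST (TTCAGCACC and GGACAGCGC) were in 0 of these 39 windows, and in 0.246% and 0.984% of all. These matches describe letters in a short window only.

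Beyond the called genes, both SETD2 siRNA libraries lay above both scramble libraries for 3732 genes (22.9%) and below both for 3363 genes (20.6%). These shares are the background for every gene group that follows. Before adjustment, 1102 genes (6.76%) were higher and 1037 (6.36%) lower with p below 0.05. After rescaling without mitochondrial genes, 2307 genes lay above and 5216 below, and the median log2 fold change of all genes went from 0.01 to -0.08. Groups of genes were therefore read against all genes under the same scaling.

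**Figure D2:**
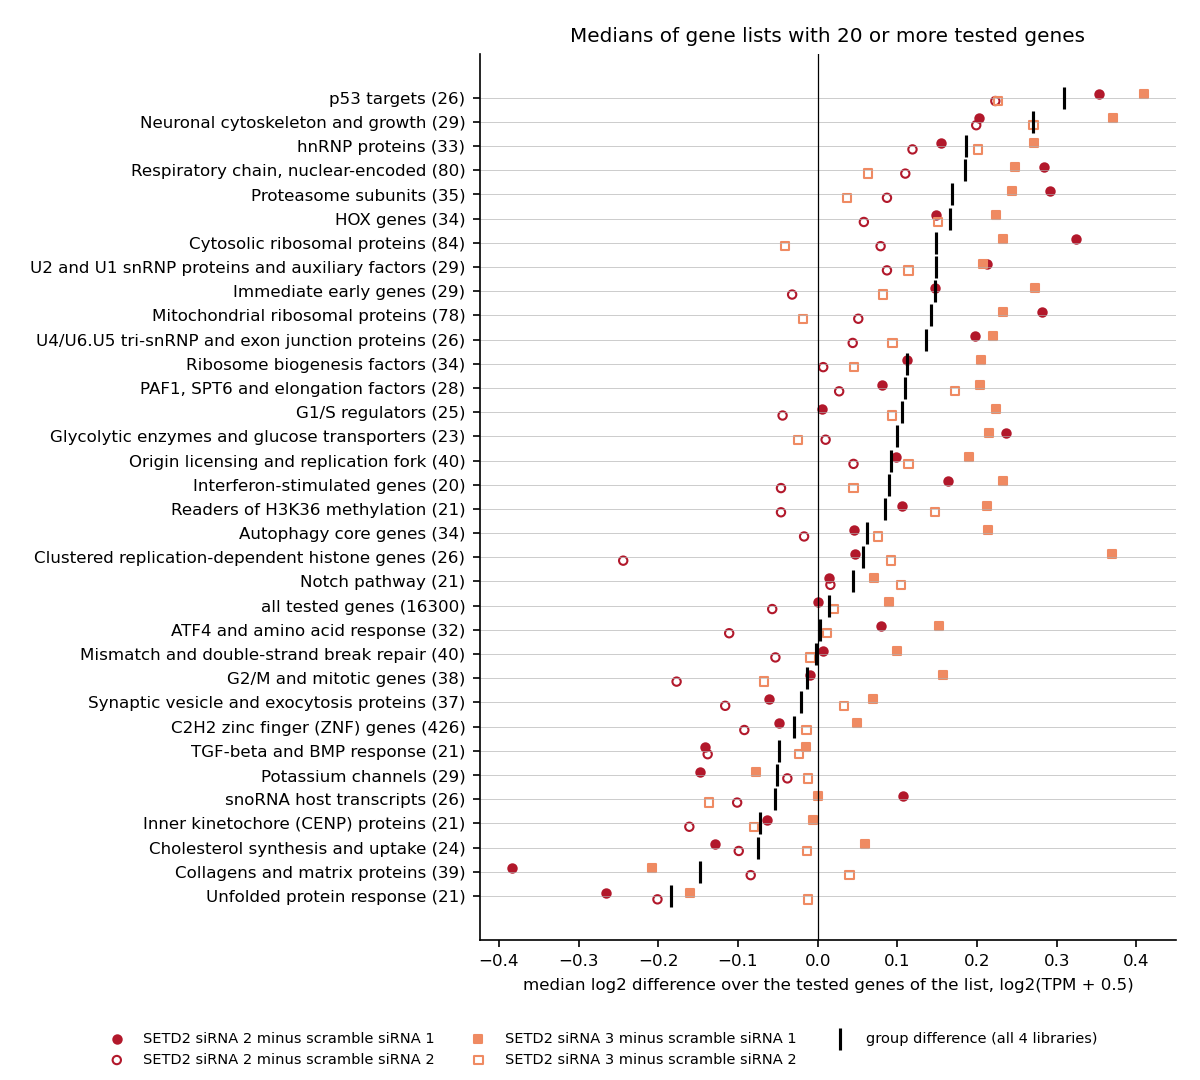
Median log2 difference of each gene list with 20 or more tested genes (number in parentheses) for the 4 pairs of a SETD2 siRNA and a scramble library (points) and for the group difference (black bar). p53 targets and neuronal cytoskeleton genes lie to the right of 0 in all 4 pairs, as do hnRNP, respiratory chain, proteasome and other lists. Cytosolic and mitochondrial ribosomal proteins lie right of 0 only against scramble library 1 or in 1 of the pairs with scramble library 2.

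Many p53 target genes lay above the scramble level. p53 is the stress-activated transcription factor that drives genes of cell-cycle arrest, DNA repair and apoptosis, and large T antigen binds and restrains it in 293T cells. Of 26 tested targets, 19 (73.1%) had both SETD2 siRNA libraries above both scramble libraries and 2 (7.7%) below. Unadjusted p under 0.05 was reached by 12 upward and 1 downward. Their median log2 fold change was 0.31, and it was 0.23 without scramble library 1. With the TPM rescaled without mitochondrial genes, 18 of the 26 still lay above and 2 below, with a median of 0.22.

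BTG2, an antiproliferative cofactor, rose among protein-coding and lncRNA genes, from 12.1 and 14.2 TPM to 22.1 and 21.4 TPM (log2 fold change 0.71 ± 0.12, adjusted p = 0.0265 in that fit). BAX, the pore-forming protein of the mitochondrial apoptosis pathway, rose in the same fit, from 102 and 129 TPM to 208 and 166 TPM (adjusted p = 0.0372). The spread of the BAX values within each group was wider than for BTG2, yet the groups did not overlap. CDKN1A, the cell-cycle inhibitor p21, was at 15.7 and 21.0 TPM against 29.4 and 26.5 TPM, and its adjusted p of 0.194 did not pass. AEN, an apoptosis-enhancing nuclease, was at 28.2 and 33.7 TPM against 45.31 and 44.04 TPM. PHLDA3, an inhibitor of AKT, was at 9.23 and 11.5 TPM against 16.5 and 15.5 TPM. FDXR, SESN1 and BBC3 showed differences of 0.56, 0.43 and 0.51 on the log2 scale, each with separate groups. MDM2, the ubiquitin ligase of p53, had overlapping groups at 46.4 and 48.6 TPM against 57.8 and 47.4 TPM. FAS, the death receptor, lay in the opposite direction, at 5.40 and 5.07 TPM against 3.10 and 3.51 TPM.

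The p53 targets also differed between the siRNAs. In the direct test, in which scramble libraries enter only the shared estimate of the spread, 16 of the 26 were higher after SETD2 siRNA with an adjusted p below 0.05 and 0 were lower, beside 7.99% and 2.77% of all genes. CDKN1A was at 11.7 and 12.6 TPM after hnRNP L siRNA, 1.17 ± 0.15 below the SETD2 siRNA libraries on the log2 scale (adjusted p = 0.00401). DDB2, a damage-recognition protein, was at 50.6 and 47.8 TPM after SETD2 siRNA against 21.0 and 25.5 TPM after hnRNP L siRNA (adjusted p = 0.00416). Against scramble, the median of the list was 0.31 after SETD2 siRNA and -0.28 after hnRNP L siRNA, so both siRNAs contribute to the gap.

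**Figure D3:**
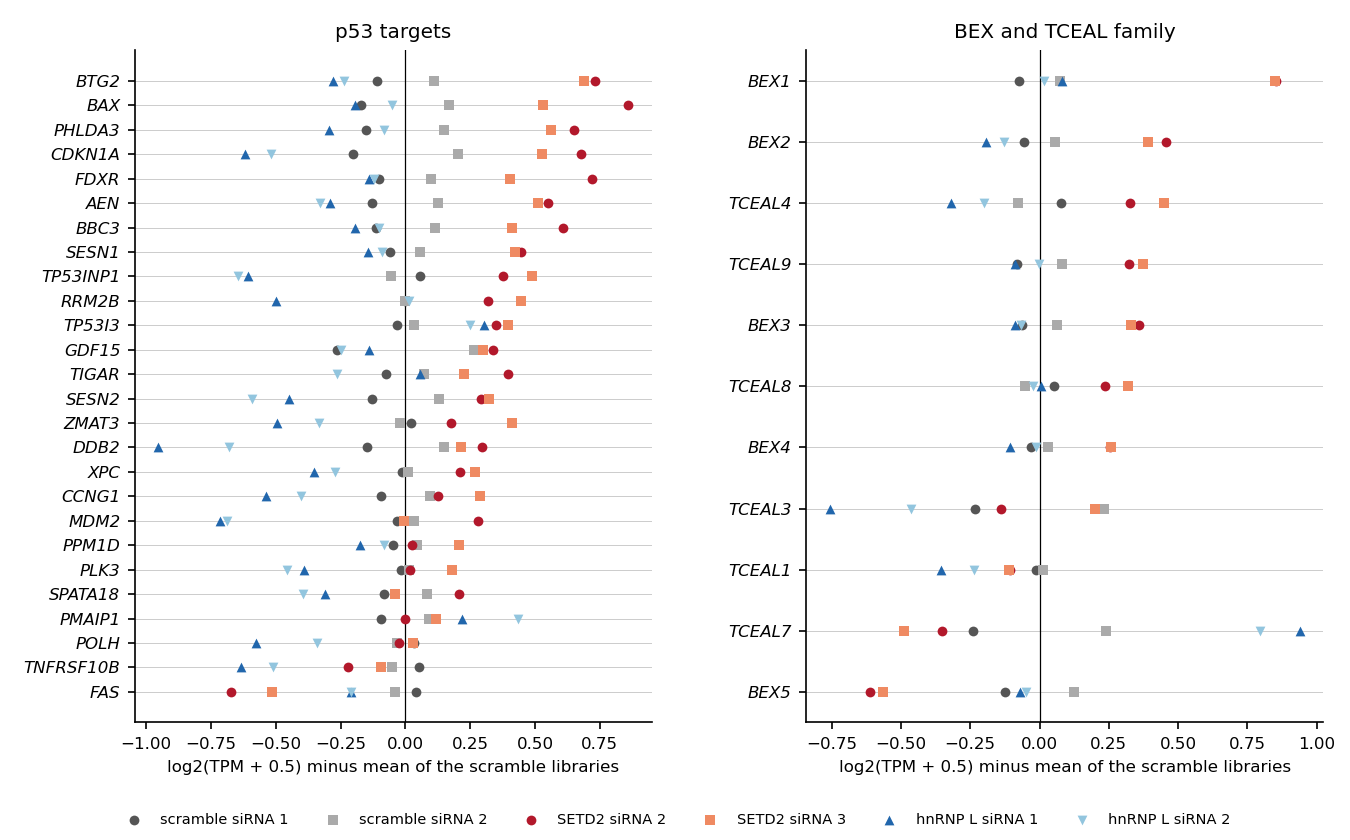
Each row is a p53 target (left) or a BEX or TCEAL gene (right) and each point a library at its log2(TPM + 0.5) minus the mean of the scramble libraries, with scramble in grey, SETD2 siRNA in red and orange, and hnRNP L siRNA in blue. In the left panel 19 of 26 genes have both SETD2 siRNA points right of both scramble points, and most hnRNP L siRNA points lie left of 0.

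The BEX and TCEAL genes form a family of small proteins encoded side by side on the long arm of the X chromosome and abundant in neural cells. Of 11 tested members, 7 lay above both scramble libraries, each at an unadjusted p under 0.05, and 3 lay below. The 7 higher members lie between BEX1 and TCEAL4 in a stretch of 525 kb (chrX:103062651-103587729) that holds 9 tested genes, and its ends were set at these genes after their values were seen, so the stretch is a description only. BEX1 was called, as given above. BEX2 was at 107 and 115 TPM against 152 and 146 TPM (log2 fold change 0.42 ± 0.10, adjusted p = 0.181). TCEAL4 was at 274 and 245 TPM against 325 and 354 TPM, and TCEAL9 at 161 and 180 TPM against 213 and 220 TPM. BEX3, the most abundant of the family, was at 544 and 593 TPM against 728 and 715 TPM. BEX4 and TCEAL8 differed by 0.26 and 0.28 on the log2 scale, also without overlap. TCEAL7, in the same stretch, lay below the scramble libraries at under 1 TPM, with 0.57 and 0.99 TPM against 0.49 and 0.40 TPM.

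BEX5 and TCEAL1, which lie beyond those ends, had both SETD2 siRNA libraries below both scramble libraries. BEX5, which lies nearer the centromere, was at 8.88 and 10.7 TPM against 6.19 and 6.41 TPM, a difference of -0.59 ± 0.13. TCEAL1 was at 35.5 and 36.2 TPM against 33.2 and 33.1 TPM. Over the 11 tested members the median was 0.28, and it was 0.27 without scramble library 1 and 0.18 after rescaling. In the direct test 5 members were higher and 2 lower after SETD2 than after hnRNP L siRNA, and the family's median after hnRNP L siRNA against scramble was -0.06.

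Genes of the neuronal cytoskeleton and of neurite growth also lay mostly above the scramble level. Of 29 tested, 21 (72.4%) lay above both scramble libraries and 2 (6.9%) below, with 12 upward and 1 downward at an unadjusted p under 0.05. The list was chosen with earlier results of these data known. It holds 5 genes called upward among protein-coding and lncRNA genes, so its counts and median partly restate those calls. The median was 0.27, with 0.24 without scramble library 1 and 0.19 after rescaling, where 16 lay above and 3 below. After hnRNP L siRNA the median of this list against the same scramble libraries was 0.25, and in the direct test 3 were higher and 4 lower after SETD2 siRNA. STMN3, a stathmin that destabilizes microtubules, rose among protein-coding and lncRNA genes from 16.6 and 19.7 TPM to 32.8 and 31.8 TPM (adjusted p = 0.00935). RUNDC3A, a neuronal effector of small GTPases, rose there from 1.11 and 0.81 TPM to 3.79 and 2.95 TPM (adjusted p = 0.00485). GNG4, a G-protein gamma subunit, rose from 16.9 and 17.2 TPM to 26.6 and 29.4 TPM. TMEM198, a membrane protein outside this list, rose from 3.17 and 3.97 TPM to 6.99 and 7.72 TPM. The groups of all 4 genes were well apart, and each also lay above the scramble libraries after hnRNP L siRNA.

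The following members did not pass the test. CRMP1, a semaphorin-signalling protein, was at 1.45 and 1.42 TPM against 2.96 and 2.44 TPM. The neurofilament genes NEFM and NEFL, 0.36 and 0.29 higher on the log2 scale after SETD2 siRNA, had direct differences from hnRNP L siRNA of -0.85 and -0.53 (adjusted p = 0.00583 and 0.0224). MAPK8IP3, a relative of MAPK8IP2, was at 17.8 and 17.9 TPM against 14.01 and 14.11 TPM, in the opposite direction.

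Synaptic vesicle and exocytosis genes did not share a direction. Of 37 tested, 10 (27.0%) lay above and 11 (29.7%) below, with 5 upward and 5 downward at an unadjusted p under 0.05 and a median of -0.02, which turned to 0.001 with quantile normalization and to 0.08 without SETD2 siRNA library 2. The 3 called genes SYP, CPLX1 and AP3B2 were joined by SYN1, synapsin 1, at 0.46 and 1.08 TPM against 2.52 and 2.25 TPM. STX1A, the plasma membrane SNARE syntaxin, was at 11.63 and 10.96 TPM against 7.90 and 8.49 TPM. DNM1, the dynamin of vesicle retrieval, was at 21.1 and 18.9 TPM against 15.0 and 15.7 TPM, and SYN2 at 3.85 and 4.26 TPM against 2.65 and 2.94 TPM. Receptor and hormone genes were as mixed: CHGA, chromogranin A, was at 0.63 and 0.42 TPM against 1.54 and 1.34 TPM, while CHRNA3, a nicotinic receptor subunit, was at 4.32 and 3.55 TPM against 1.63 and 2.17 TPM. Voltage-gated sodium and calcium channels lay above in 2 and below in 7 of 18.

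Genes of the hnRNP proteins lay mostly above the scramble libraries in the deposited TPM, and other lists of splicing proteins less so. Of 33 tested hnRNP genes, which package nascent transcripts, 22 (66.7%) lay above and 0 below, and 12 reached an unadjusted p under 0.05 upward, with 0 downward. The median was 0.19, and it was 0.18 without scramble library 1 and 0.09 after rescaling, where 12 lay above and 1 below. HNRNPH3 was at 609 and 567 TPM against 765 and 902 TPM (log2 fold change 0.50 ± 0.12, adjusted p = 0.197). HNRNPA2B1 was at 2290 and 2147 TPM against 2726 and 3074 TPM, and HNRNPAB at 273 and 282 TPM against 343 and 369 TPM. HNRNPAB was also 0.68 ± 0.09 higher than after hnRNP L siRNA (adjusted p = 0.00553). Of the 3200 protein-coding genes in the highest quartile of level, 1153 lay above and 445 (13.9%) below.

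Proteins of the U1 and U2 particles lay above in 15 of 29 and below in 2, and those of the tri-snRNP and exon junction complex above in 14 of 26 and below in 2. SNRPF, an Sm ring protein, was at 195 and 204 TPM against 267 and 262 TPM, and SNRPD1 at 439 and 469 TPM against 579 and 611 TPM. SYF2, a component of the active spliceosome, was at 32.7 and 34.4 TPM against 45.6 and 49.6 TPM. MAGOHB, a core exon junction protein, was at 41.0 and 37.9 TPM against 53.8 and 54.4 TPM and at 25.1 and 30.5 TPM after hnRNP L siRNA. SR proteins showed no such excess, with 4 of 17 above and 2 below, or 1 and 4 after rescaling. The medians of the snRNP lists, 0.15 and 0.14, became 0.05 and 0.04 after rescaling and 0.09 and 0.06 without scramble library 1. After rescaling, 11 of the 29 U1 and U2 genes lay above and 5 below. Of the 26 tri-snRNP and exon junction genes, 9 then lay above and 5 below.

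L-type cyclins, regulators of the splicing kinase CDK11, lay on the other side. CCNL1 fell among protein-coding and lncRNA genes, from 50.6 and 56.0 TPM to 33.4 and 30.7 TPM (limma adjusted p = 0.0126). CCNL2, the other L-type cyclin, was at 47.6 and 42.9 TPM against 35.0 and 32.8 TPM. CCNL1 was at 34.7 and 33.4 TPM after hnRNP L siRNA as well. The direct difference between the siRNAs was -0.09 ± 0.10.

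Several noncoding host transcripts fell or lay low. snoRNA host genes carry small nucleolar RNAs in their introns, and their spliced exons are quickly degraded. SNHG4 fell among protein-coding and lncRNA genes, from 27.8 and 25.4 TPM to 15.5 and 17.5 TPM (adjusted p = 0.0265), and it was at 34.1 and 31.8 TPM after hnRNP L siRNA. SNHG1 was at 230 and 239 TPM against 181 and 181 TPM, and GAS5 at 376 and 428 TPM against 315 and 284 TPM. TAF1D, a polymerase I factor gene that hosts snoRNAs, was at 170 and 170 TPM against 136 and 139 TPM. SNHG8 and SNHG21 lay in the other direction, at 0.33 and 0.47 on the log2 scale, and C6orf48, which overlaps SNORD48 and SNORD52, rose among protein-coding and lncRNA genes from 67.3 and 71.6 TPM to 126 and 104 TPM. Of 26 tested hosts, 7 were lower and 3 higher at an unadjusted p under 0.05, 9 lay below and 7 above both scramble libraries, the median was -0.05 (-0.13 without scramble library 1), and in the direct test 5 were lower and 0 higher than after hnRNP L siRNA.

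Among other long noncoding RNAs, MIR17HG, the host of the miR-17-92 cluster, fell in the same fit from 11.97 and 10.08 TPM to 6.65 and 5.98 TPM (adjusted p = 0.031), and it was at 14.7 and 12.6 TPM after hnRNP L siRNA. MALAT1, a nuclear-retained transcript of speckles, fell from 43.0 and 36.5 TPM to 27.3 and 21.2 TPM (adjusted p = 0.031). Of 1794 tested lncRNAs, 327 (18.2%) lay above and 432 (24.1%) below. Transcripts whose models await experimental checks (TEC) lay below in 28 of 66 and transcribed unprocessed pseudogenes below in 86 of 259. Processed pseudogenes, whose sequences match their parent mRNAs, lay above in 256 (28.6%) and below in 88 (9.8%) of 895, and reads of the parents may be counted there.

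The unfolded protein response lay mostly below the scramble level. Of 21 tested genes of the unfolded protein response, the programme that raises chaperones when the endoplasmic reticulum is loaded, 11 (52.4%) lay below and 1 above, with 3 downward and 0 upward at an unadjusted p under 0.05. HSPA5, its central chaperone, was at 369 and 353 TPM against 265 and 301 TPM, and at 371 and 370 TPM after hnRNP L siRNA. DNAJC3 was at 10.96 and 9.91 TPM against 7.64 and 8.66 TPM, and HERPUD1 at 70.0 and 78.1 TPM against 52.5 and 66.5 TPM. The median was -0.18, and it was -0.10 without scramble library 1 and -0.28 after rescaling. After hnRNP L siRNA the median of this list against scramble was -0.24. In the direct test 3 of the 21 genes were higher and 1 lower after SETD2 siRNA. Heat shock genes, which also hold chaperones, lay above in 4 and below in 4 of 14, with a median of 0.01 that was -0.003 without scramble library 1 and -0.08 after rescaling.

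Sterol genes were mixed after SETD2 siRNA. SC5D, which acts late in cholesterol synthesis, fell among protein-coding and lncRNA genes from 75.8 and 68.3 TPM to 45.5 and 46.6 TPM (adjusted p = 0.0231). MSMO1, a sterol oxidase, was at 59.9 and 56.9 TPM against 42.7 and 45.5 TPM, and INSIG1, the sterol-sensing retention protein, at 251 and 236 TPM against 174 and 197 TPM. PMVK, a mevalonate kinase step, lay in the opposite direction, at 24.8 and 32.8 TPM against 41.6 and 37.7 TPM. Of 24 tested genes, 6 were lower and 1 higher at an unadjusted p under 0.05, and 8 lay below and 6 above, or 11 and 3 after rescaling. After hnRNP L siRNA the median against scramble was -0.71, beside -0.08 after SETD2 siRNA, and 20 of 24 were higher after SETD2 than after hnRNP L siRNA in the direct test. Fatty acid genes lay below in 8 of 19 and above in 2, and their median of -0.13 was -0.04 without scramble library 1. Among them the desaturase FADS1 was at 40.0 and 34.9 TPM against 24.95 and 27.96 TPM, and FADS3 at 10.98 and 15.06 TPM against 9.33 and 8.40 TPM.

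Matrix genes were also low, with 12 of 39 below and 3 above, but this depended on 1 library. SPARC, a collagen-binding glycoprotein, was at 50.7 and 48.7 TPM against 35.8 and 38.2 TPM, and LAMC3, a laminin chain, at 5.66 and 4.98 TPM against 3.79 and 3.28 TPM. The median of the list was -0.15, and it was -0.01 without scramble library 1. In the TGF-beta and BMP response 8 of 21 genes lay below and 2 above. ID3, an inhibitor of basic helix-loop-helix factors, was at 43.4 and 60.2 TPM in the scramble libraries and at 35.97 and 38.01 TPM after SETD2 siRNA. ID1, its relative, was at 11.4 and 15.8 TPM against 10.26 and 10.27 TPM. ID3 was at 84.1 and 78.4 TPM after hnRNP L siRNA, and its direct difference was -1.12 ± 0.15 (adjusted p = 0.00474).

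Growth-related machinery lay above the scramble libraries, mostly against library 1. Of 80 nuclear-encoded respiratory chain genes, 50 (62.5%) lay above and 2 (2.5%) below, and of 35 proteasome subunits 20 (57.1%) and 0. NDUFB2, a complex I subunit, was at 88.1 and 85.1 TPM against 115 and 116 TPM. NDUFC1 was at 131 and 120 TPM against 175 and 161 TPM. PSMD4, a ubiquitin receptor of the proteasome, was at 356 and 398 TPM against 515 and 472 TPM. Without scramble library 1 the medians went from 0.19 to 0.08 for the respiratory chain and from 0.17 to 0.05 for the proteasome, and for cytosolic ribosomal proteins from 0.15 to 0.02. After rescaling without mitochondrially encoded genes, 36 respiratory chain genes lay above and 7 below, with a median of 0.09. Of the proteasome subunits 12 then lay above and 2 below. In the deposited TPM, nuclear-encoded and mitochondrially encoded respiratory genes thus lay in opposite directions. The mitochondrial share of scramble library 1 moved with both, and its part in the result was not tested.

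Replication genes held 18 of 40 above and 5 below, with 10 upward and 0 downward at an unadjusted p under 0.05. MCM2, a helicase subunit, was at 120 and 118 TPM against 159 and 171 TPM, FEN1, the flap endonuclease, at 79.5 and 83.9 TPM against 106 and 105 TPM, and RPA2 at 136 and 153 TPM against 191 and 185 TPM. The median of 0.09 became -0.003 after rescaling without mitochondrial genes, a setting in which the median of all genes was -0.08, and it was 0.08 without scramble library 1. Of 38 mitotic genes, 2 lay above and 4 below. After rescaling, 0 lay above and 15 below, beside 2307 above and 5216 below among all genes under that scaling. Their median of -0.01 was -0.14 without scramble library 1. Of 21 inner kinetochore genes, 9 lay below and 2 above, and ITGB3BP, at 83.1 and 89.6 TPM against 71.1 and 74.9 TPM, was the only one besides CENPW at an unadjusted p under 0.05 in the deposited TPM. After rescaling, 13 lay below and 0 above, with 5 lower at that p. The median of these kinetochore genes was then -0.17, beside -0.08 for all genes under that scaling. Without scramble library 1 their median of -0.07 became -0.14.

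Chromatin, patterning and zinc finger genes differed from list to list. Of 28 elongation factors, which act with SETD2 on polymerase II, 13 lay above and 1 below, with 5 upward and 0 downward at an unadjusted p under 0.05. After rescaling, 7 lay above and 4 below, with a median of 0.01 in place of 0.11, and without scramble library 1 the median was 0.11 with 1 gene at that p. IWS1, a partner of SPT6 that helps to recruit SETD2, was at 32.7 and 30.2 TPM against 37.6 and 43.5 TPM, and CDK9, the elongation kinase, at 17.9 and 21.4 TPM against 23.8 and 27.6 TPM. HOX genes, which pattern the body axis, lay above in 19 of 34 (55.9%) and below in 3. Their median was 0.17, and it was 0.12 without scramble library 1 and 0.08 after rescaling. HOXB7 was at 37.0 and 39.5 TPM against 51.9 and 47.3 TPM. Zinc finger genes, the largest family with 426 tested, lay above in 72 (16.9%) and below in 104 (24.4%), and 17 upward against 18 downward reached an unadjusted p under 0.05. With quantile normalization 94 lay above and 93 below, and after rescaling 39 and 162, so their split depended on the scaling.

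Other genes that fell among protein-coding and lncRNA genes had varied roles, and only some of them are given here. CRKL, an adaptor of tyrosine kinases, went from 37.0 and 42.1 TPM to 22.5 and 26.0 TPM, CD47, the anti-phagocytic surface protein, from 34.2 and 29.3 TPM to 20.1 and 20.4 TPM, and LAPTM4A, a lysosomal membrane protein, from 155 and 129 TPM to 83.7 and 89.1 TPM. SLC47A1, a cation exporter of the kidney, went from 16.4 and 15.7 TPM to 9.45 and 9.94 TPM. HLA-DQB1 went from 23.6 and 26.1 TPM to 14.09 and 15.97 TPM, and MSH5, a meiotic MutS protein, from 21.7 and 21.0 TPM to 13.2 and 14.4 TPM. NOMO1 and NOMO3, near-identical copies on chromosome 16, fell 1.53-fold and 1.65-fold, and reads can be divided between them. Upward, DOHH, which completes hypusine on the translation factor eIF5A, went from 7.35 and 7.93 TPM to 12.8 and 11.8 TPM, TRIR, an exoribonuclease, from 227 and 260 TPM to 394 and 352 TPM, and HIF1AN, the asparagine hydroxylase of HIF, from 21.1 and 22.2 TPM to 30.9 and 34.7 TPM.

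Gene length and exon number were examined because H3K36me3 lies over gene bodies. Protein-coding genes were divided into quartiles by genomic span. Medians were 0.07 for genes up to 13.7 kb, 0.03 up to 34.4 kb, -0.002 up to 83.0 kb and -0.03 for longer genes. In the shortest quartile 1018 genes (31.8%) lay above and 546 (17.1%) below, and in the longest 506 (15.8%) and 687 (21.5%). Quartiles by exon number gave medians from 0.06 to -0.03, and quartiles by level gave -0.05 for the lowest and 0.09 for the highest. Between the scramble libraries, 2 minus 1, medians ran from 0.113 to -0.044 over the exon quartiles and from 0 to 0.135 over the level quartiles. The same order by span appeared between the scramble libraries, whose medians for library 2 minus 1 were 0.16, 0.09, 0.02 and -0.04. Between the SETD2 siRNA libraries, 3 minus 2, the order was the reverse, from 0 to 0.18. Without scramble library 1 the medians of the quartiles were all between -0.02 and -0.01, so the order by gene span was absent.

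**Figure D4:**
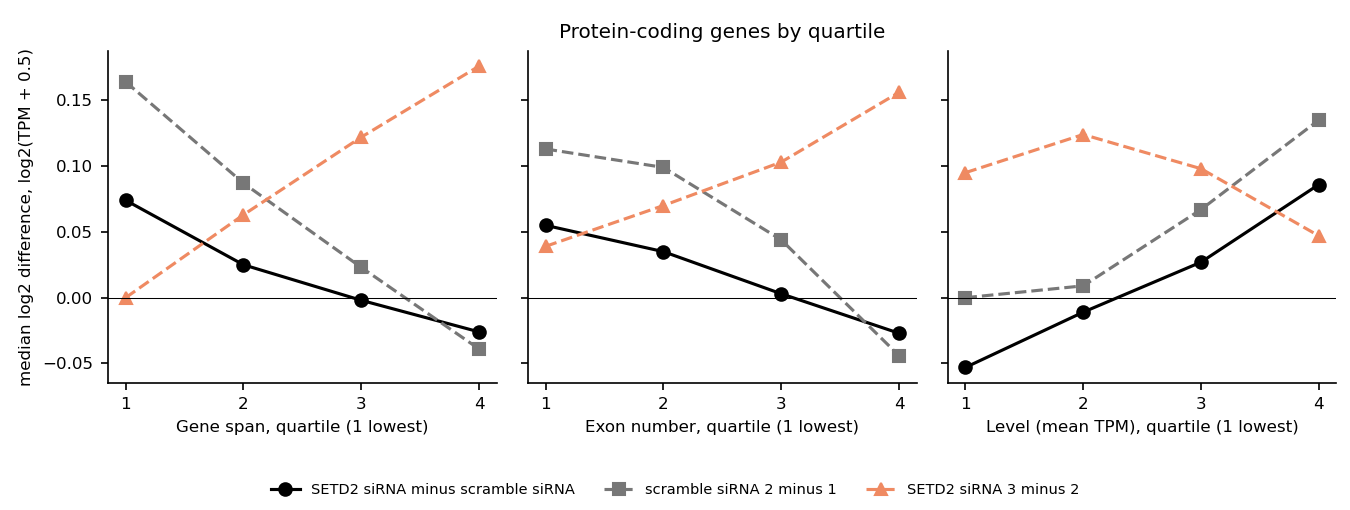
Median log2 difference of protein-coding genes in quartiles by gene span, exon number and level for SETD2 siRNA minus scramble siRNA (black), scramble library 2 minus 1 (grey) and SETD2 siRNA library 3 minus 2 (orange). The differences between libraries of a group reach 0.16 and 0.18 by span, larger than the 0.07 between the groups.

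By chromosome, genes of chromosome 19 lay above in 339 of 1094 (31.0%) and below in 202 (18.5%), with a median of 0.07. Against scramble library 1 the medians of SETD2 siRNA libraries 2 and 3 were 0.114 and 0.155 there, but against scramble library 2 -0.009 and 0.013. Between scramble libraries 2 and 1 the median was 0.134, larger than the group difference. Genes of chromosome 13 lay above in 42 of 303 (13.9%) and below in 74 (24.4%). Chromosome X as a whole was even, with 141 of 588 on each side.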

How the data were processed

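RNA-seq of 6 libraries of 293T cells was analysed, 2 each for scramble, SETD2 and hnRNP L siRNA, with groups and numbers from the labels. Per the labels and methods, the authors aligned reads with STAR 2.6.1c to hg38 with Ensembl gene models and deposited TPM per gene from RSEM 1.3.0, scaled to a fixed total. TPM hold no read counts, so depth and counting error are unknown here.

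Values were transformed to log2(TPM + 0.5), which understates changes of low genes. Genes whose TPM averaged 0.5 or more were tested with limma 3.58.1 in R 4.3.3, in 1 fit of 6 libraries with a variance trend, two-sided, with Benjamini-Hochberg adjustment, and calls needed a fold change over 1.5 with an adjusted p below 0.05. The count test used by the authors could not be run on TPM. The fit was tested on simulated data. Biotypes and gene coordinates came from GENCODE 44, and promoters from RefSeq (GRCh38.p14).

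The members, the 63 gene lists and the named genes were chosen with earlier results of these data known, and a list is described by counts and medians only. Genes could be named for a call in either fit, or as markers or H3K36 methyltransferases. Up to 4 members of a list per direction could be named by the smallest unadjusted p under 0.05 with separate groups. So could the 10 coding or lncRNA genes per direction with the smallest p. Not every such gene is described above, and many called genes are left out. FDXR, SESN1, BBC3, MDM2, DDB2, BEX3, BEX4, TCEAL7, TCEAL8, TCEAL1, CRMP1 and NEFL were named after their values were seen. Alternatives were pseudocounts, filters, scalings, the libraries in the fit, the trend, the fold cut-off and leaving out each library. Tables were made in Python 3.11.15. Results for some marker genes are not reported here.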

Additional observations from a re-analysis of the deposited data

How the results depend on the processing

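Without a filter on low values, 0 genes rose and 1 fell (limma; 1446 were higher and 1529 lower at an unadjusted p under 0.05), and the SETD2 transcript kept its log2 fold change of -1.36 at an adjusted p of 0.161. With protein-coding and lncRNA genes only, 25 rose and 35 fell. The downward count was 14 with a pseudocount of 0.1, 15 with a mean TPM of at least 1 and 14 with only the 4 scramble and SETD2 siRNA libraries. After rescaling without mitochondrially encoded genes, 2307 genes lay above and 5216 below both scramble libraries. Leaving out each library in turn gave 3 to 13 genes up and 5 to 32 down, the lowest counts without scramble library 1 and the highest downward count without scramble library 2. The SETD2 log2 fold change then ran from -1.46 to -1.27, with an adjusted p of 0.162 without scramble library 1 and 0.082 without SETD2 siRNA library 2. Of the other 16 called genes, 4 were still called without scramble library 1. Leaving out each library, MDM2 ran from -0.004 without SETD2 siRNA library 2 to 0.28 without SETD2 siRNA library 3. The causes were not tested, and some of these settings also hold fewer libraries or genes. No paired analysis was possible because the scramble libraries are numbered 1 and 2 and the SETD2 siRNA libraries 2 and 3, which share only 1 number. With 2 libraries per group and no read counts, small changes of low genes could not be resolved.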
